A study of Oryza sativa with 18 samples.

Results

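The 7 genes described here encode catalytic subunits of cellulose synthase in rice. They were taken by gene identifier and are 7 of the 38993 genes listed. CESA4 (Os01g0750300), CESA7 (Os10g0467800) and CESA9 (Os09g0422500, listed under the symbol BC6) are the 3 subunits of secondary walls. CESA1 (Os05g0176100), CESA3 (Os07g0424400), CESA6 (Os07g0252400) and CESA8 (Os07g0208500) are 4 subunits of primary walls. Their messenger RNA was measured in flag leaves, the uppermost leaf of the rice plant, during grain filling. Leaves came from the hybrid Hanyou73 and from its parents Hanhui3 and Huhan7B, grown in the same field. Each genotype was either watered (the "water" groups) or left without irrigation from early grain filling (the "drought" groups). This gives 6 groups of 3 libraries, 18 in all, and every library pooled flag leaves of several plants of one plot. The labels do not say whether the 3 replicates of a group came from separate plots, so a p-value measures the spread between such pools, which may share a plot. Each genotype is a single line.

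Cellulose is made at the plasma membrane by rosette-shaped complexes of several different CESA subunits, which use UDP-glucose as substrate. One set of subunits works while a cell expands and lays down its thin primary wall. Another set works later, in xylem vessels and fibres, where a thick secondary wall of cellulose, xylan and lignin is added once growth has ended, and loss of any one of CESA4, CESA7 or CESA9 gives rice brittle culms. A mature flag leaf has finished expanding, and its xylem and fibre strands are where secondary walls are known to occur. The study set out to compare how the hybrid and its parents respond to drought, and to find genes whose expression in the hybrid is not the average of the parents.

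Levels are the FPKM values (fragments per kilobase of transcript per M fragments) in the deposited table, which are scaled for transcript length and depth. Comparisons between libraries still depend on the scaling. Size factors of median-ratio scaling between libraries ran from 0.868 (a watered Hanhui3 library) to 1.169 (a droughted hybrid library), so this scaling was tried as an alternative. The spacing of low values put the depth at 13.1 to 16.6 M fragments per library. Genes at 1 FPKM or more numbered 19088 to 21021 per library. A change is the difference of group means of log2(FPKM + 1) with its standard error (SE), and it was called at an adjusted p under 0.05 in limma, fitted to all 18 libraries and adjusted over 22590 genes. All 7 genes passed the filter for testing, which was 1 FPKM in at least 3 libraries. CESA7 and CESA9 passed it through the 3 droughted hybrid libraries alone: none of the other 15 libraries reached 1 FPKM, so these 2 genes had to differ between the droughted hybrid and the rest once they were tested. Their differences that involve the droughted hybrid are therefore given as a description, with no p. CESA4 reached 1 FPKM in 3 libraries outside the droughted hybrid, CESA8 in 14 and the other primary wall genes in all 15.

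In the flag leaves of the droughted hybrid, the 3 secondary wall genes were expressed within the range of the primary wall genes, and in the other 15 libraries they stood at 1.34 FPKM or less. CESA4 was listed at 14.28, 15.43 and 16.12 FPKM in the 3 droughted hybrid libraries, against 0.52, 0.33 and 0.51 FPKM in the watered hybrid. The ratio of the group means, 15.3 ± 0.93 to 0.453 ± 0.107 FPKM (SD, n = 3), was 33.7. About 632 to 711 fragments lie behind each of the 3 high values. In bulk leaf tissue, a change in the number of cells of a type and a change in RNA per cell cannot be told apart.

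CESA4 was low in both parents as well. It was listed at 0.29, 0.44 and 0.29 FPKM in watered Hanhui3, and at 0.58, 0.35 and 0.42 FPKM in droughted Hanhui3. In watered Huhan7B it was listed at 0.54, 0.71 and 0.29 FPKM, and in droughted Huhan7B at 1.11, 1.09 and 1.34 FPKM. The 3 droughted Huhan7B libraries thus lay above all watered ones and above all Hanhui3 libraries, and below all droughted hybrid ones.

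CESA7 was listed at 12.72, 12.75 and 12.35 FPKM in the droughted hybrid, from 539 to 560 fragments per library. In the watered hybrid it was at 0 in replicates 1 and 2 and at 0.06 FPKM in replicate 3. It was at 0 in every library of Huhan7B and of watered Hanhui3, and at 0.02, 0.03 and 0.02 FPKM in droughted Hanhui3. These last values amount to about 1 fragment per library, and 3 fragments of CESA7 would be 0.0582 to 0.0733 FPKM, so no fold is given against these groups. In total, 11 of the 15 libraries outside the droughted hybrid were listed at 0.

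CESA9 was listed at 9.60, 9.43 and 9.40 FPKM in the droughted hybrid, the narrowest spread of the 3 secondary wall genes relative to its mean (9.48 ± 0.108 FPKM; SD, n = 3). In the watered hybrid it was at 0.08, 0 and 0 FPKM, and in Huhan7B it was at 0 in all 6 libraries. In Hanhui3 it was at 0, 0 and 0.05 FPKM in water, and at 0.13, 0.18 and 0.35 FPKM under drought, from about 7.1 to 17.2 fragments. The droughted hybrid mean was 43.1 times that of droughted Hanhui3.

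**Figure D1:**
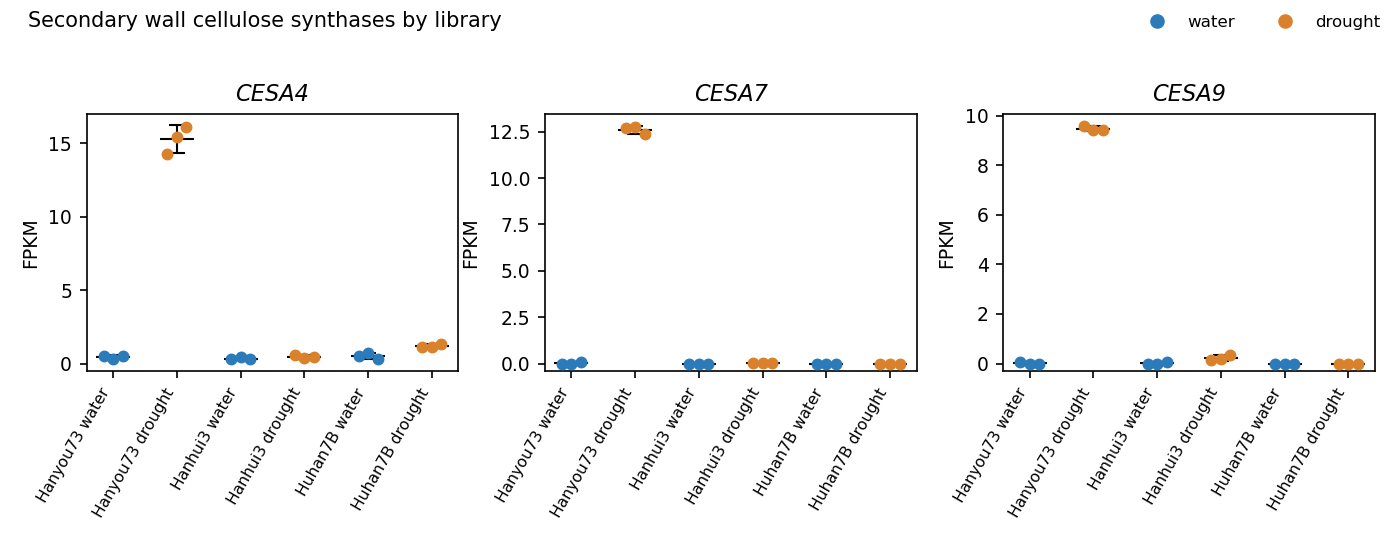
Expression of the 3 secondary wall cellulose synthase genes in FPKM (vertical axis, linear, a separate scale for each gene) in each of the 18 libraries, by group. Points are libraries, blue for water and orange for drought, and black bars are the mean ± SD of 3 libraries; the droughted hybrid stands at 9.40 to 16.12 FPKM and every other library at 1.34 FPKM or less.

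Within the droughted hybrid the 3 subunits kept one order, CESA4 above CESA7 above CESA9, in each of the 3 libraries. CESA4 made up 40.9% ± 1.78 of their summed FPKM, CESA7 33.8% ± 1.08 and CESA9 25.4% ± 0.752 (SD, n = 3). In the watered hybrid CESA4 alone was 92.05% ± 7.03 of a sum of only 0.50 ± 0.148 FPKM (SD, n = 3). In both groups of Huhan7B the sum was made of CESA4 alone.

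The primary wall genes were expressed in every group, with CESA3 and CESA1 the most abundant. CESA3 was listed at 11.65, 10.15 and 11.21 FPKM in the watered hybrid and at 24.89, 25.33 and 25.27 FPKM in the droughted hybrid. In Hanhui3 it stood at 9.70, 14.02 and 12.92 FPKM in water and at 19.73, 19.61 and 19.14 FPKM under drought. In Huhan7B the direction was the other: 10.23, 10.40 and 11.12 FPKM in water, and 8.75, 7.12 and 6.81 FPKM under drought. In each genotype the watered and droughted libraries did not overlap.

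CESA1 was listed at 9.54, 8.24 and 7.74 FPKM in the watered hybrid and at 21.13, 21.29 and 21.83 FPKM in the droughted hybrid. Hanhui3 had 5.35, 5.54 and 5.95 FPKM in water and 14.04, 13.73 and 13.29 FPKM under drought. Huhan7B had 4.72, 4.14 and 4.97 FPKM in water and 3.11, 2.92 and 4.57 FPKM under drought, and here replicate 3 of drought overlapped the watered range. The order of group means ran from the droughted hybrid through droughted Hanhui3, watered hybrid and watered Hanhui3 to Huhan7B, and neighbouring groups did not overlap, except the 2 groups of Huhan7B.

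CESA6 was listed at 4.23, 2.63 and 3.72 FPKM in the watered hybrid and at 13.04, 13.84 and 12.16 FPKM in the droughted hybrid. In Hanhui3 it went from 3.66, 4.43 and 3.54 FPKM in water to 7.47, 6.89 and 7.10 FPKM under drought. In Huhan7B it was at 2.5, 3.02 and 3.49 FPKM in water and at 2.10, 3.21 and 2.27 FPKM under drought. The watered hybrid overlapped both watered parents, and the groups of Huhan7B overlapped each other.

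CESA8 was the least abundant primary wall gene in the watered hybrid, at 1.25, 0.86 and 1.04 FPKM, and reached 9.71, 8.64 and 10.02 FPKM there under drought. Hanhui3 had 2.64, 3.35 and 3.05 FPKM in water and 9.09, 6.39 and 6.79 FPKM under drought, so the droughted hybrid and droughted Hanhui3 overlapped. Huhan7B had 1.5, 2.60 and 1.15 FPKM in water and 1.64, 2.78 and 1.83 FPKM under drought, with a replicate 2 above the other libraries in both groups.

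**Figure D2:**
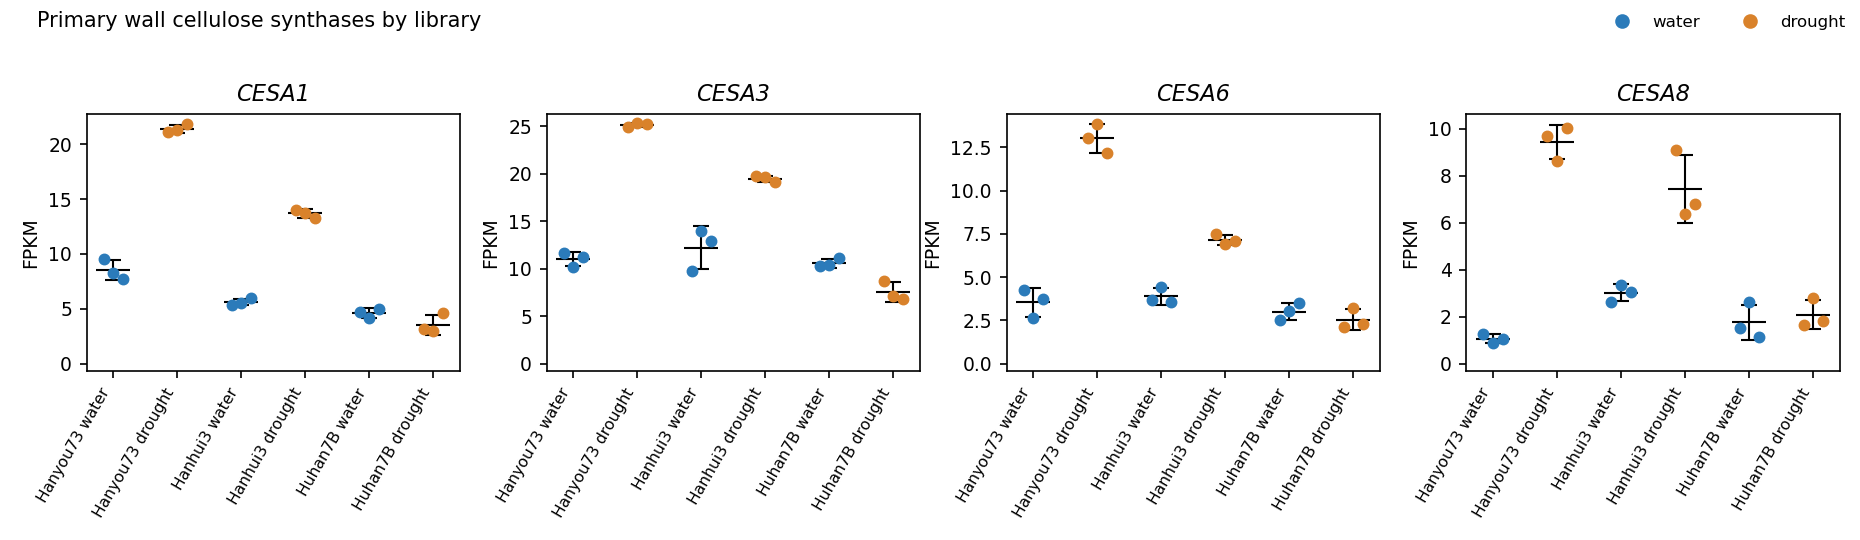
Expression of the 4 primary wall cellulose synthase genes in FPKM (vertical axis, linear, a separate scale for each gene) in each of the 18 libraries, by group. Points are libraries, blue for water and orange for drought, and black bars are the mean ± SD of 3 libraries; by their means all 4 genes stand highest in the droughted hybrid, next in droughted Hanhui3, and lower in the remaining groups.

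Summed over the 4 primary wall genes, expression went from 24.1 ± 2.42 to 69.05 ± 0.259 FPKM with drought in the hybrid, from 24.7 ± 3.06 to 47.8 ± 2.23 FPKM in Hanhui3 and from 19.95 ± 0.909 to 15.7 ± 0.289 FPKM in Huhan7B (SD, n = 3). The secondary wall genes supplied 35.1% ± 0.329 of the FPKM of all 7 genes in the droughted hybrid (SD, n = 3). In the watered hybrid their share was 2.01% ± 0.461. It was 1.41% ± 0.148 and 1.43% ± 0.245 in watered and droughted Hanhui3, and 2.52% ± 1.04 and 6.99% ± 0.855 in watered and droughted Huhan7B (SD, n = 3). Among the primary wall genes, CESA3 made up 45.8% ± 1.88 in the watered and 36.4% ± 0.237 in the droughted hybrid, while CESA8 made up 4.34% ± 0.381 and 13.7% ± 1.05 (SD, n = 3).

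The first comparison asked how each genotype responded to drought. In the hybrid Hanyou73, 5 of the 5 genes whose test the filter did not fix rose (all but CESA7 and CESA9), where 45.0% of all genes tested were called higher and 25.7% lower (10161 and 5816 genes, or 7976 and 7404 with median-ratio scaling between libraries). CESA4 rose by 3.49 ± 0.11 in log2 (limma, adjusted p = 2.31e-13). The difference of group means was 3.74 for CESA7 and 3.35 for CESA9. These 3 values depend on the pseudocount of 1, since the watered hybrid was near 0. Each was higher in 3 of 3 droughted libraries than in any watered one.

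The changes of the primary wall genes in the hybrid were smaller on this scale. CESA8 rose by 2.35 ± 0.18 in log2 (limma, adjusted p = 9.69e-09), a 9.01-fold ratio of mean FPKM. CESA6 rose by 1.65 ± 0.14 (adjusted p = 3.88e-08; ratio 3.69), CESA1 by 1.24 ± 0.11 (adjusted p = 5.89e-08; ratio 2.52) and CESA3 by 1.13 ± 0.11 (adjusted p = 1.05e-07; ratio 2.29). The 5 calls held under each alternative setting and without each library in turn. Over all genes tested the median change in the hybrid was 0.18 in log2, and 0.03 with median-ratio scaling, under which the 7 changes ran from 0.96 for CESA3 to 3.53 for CESA7.

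In Hanhui3, 5 of the 7 genes rose, where 35.1% of all genes tested were called higher and 18.4% lower (7934 and 4164 genes, or 5793 and 5757 with median-ratio scaling). CESA1 rose by 1.15 ± 0.11 in log2 (limma, adjusted p = 3.97e-07), close to the size seen in the hybrid. CESA8 rose by 1.06 ± 0.18 (adjusted p = 0.000138), CESA6 by 0.74 ± 0.14 (adjusted p = 0.000363) and CESA3 by 0.65 ± 0.11 (adjusted p = 8.96e-05). The secondary wall gene CESA9 rose by 0.26 ± 0.08 from a few fragments per library (adjusted p = 0.0159). That call was lost without Hanhui3 drought replicate 3 (0.18, adjusted p = 0.0879) and with a pseudocount of 5 (adjusted p = 0.0798). CESA4 (0.11 ± 0.11, adjusted p = 0.422) and CESA7 (0.03 ± 0.07, adjusted p = 0.731) were not called.

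In Huhan7B, 1 of the 7 genes rose and 2 fell, where 21.2% of all genes tested were called higher and 32.1% lower (4781 and 7256 genes, or 6173 and 5339 with median-ratio scaling). CESA4 rose by 0.53 ± 0.11 in log2 (limma, adjusted p = 0.000768), from 0.513 ± 0.211 to 1.18 ± 0.139 FPKM (SD, n = 3). CESA3 fell by 0.44 ± 0.11 in log2 (adjusted p = 0.00212) and CESA1 by 0.32 ± 0.11 (adjusted p = 0.0218). The CESA1 call was lost with median-ratio scaling (-0.22, adjusted p = 0.113), with only the 2 Huhan7B groups in the fit (adjusted p = 0.145), and without any one of water replicates 1 and 3 and drought replicates 1 and 2 (adjusted p = 0.059 to 0.115). CESA6 (-0.19 ± 0.14) and CESA8 (0.18 ± 0.18) were not called, and CESA7 and CESA9 were at 0 throughout and could not be called.

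**Figure D3:**
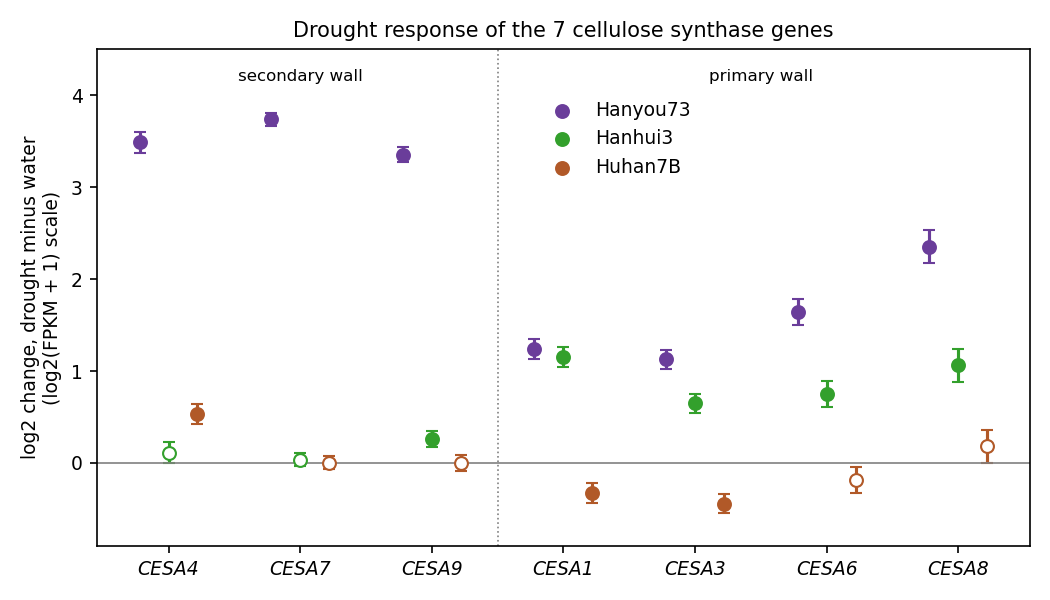
Change with drought in log2(FPKM + 1) (vertical axis) of the 7 cellulose synthase genes (horizontal axis) in Hanyou73, Hanhui3 and Huhan7B. Points are drought minus water with SE bars, filled where limma called the change and open where it did not; the 3 secondary wall genes stand at 3.35 to 3.74 in Hanyou73 and at 0.53 or less in both parents. CESA7 and CESA9 are filled in Hanyou73, but they passed the filter only with the droughted hybrid and had to differ there.

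The next comparison asked whether the responses themselves differed between genotypes. The hybrid's response minus the mean response of the parents was above 0 for CESA4 and the 4 primary wall genes, where 38.8% of all genes tested were called higher and 19.5% lower. The difference was 3.16 ± 0.14 in log2 for CESA4 (limma, adjusted p = 3e-11). It was 1.73 ± 0.22 for CESA8, 1.37 ± 0.17 for CESA6, 1.02 ± 0.13 for CESA3 and 0.83 ± 0.14 for CESA1 (adjusted p from 6.23e-06 to 8.71e-05). For CESA7 and CESA9 it was 3.72 and 3.22, a description for the reason given.

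Between the parents, the 4 primary wall genes responded more upwards in Hanhui3 than in Huhan7B, where 36.2% of all genes tested were called so and 17.1% the other way. The difference of responses was 1.47 ± 0.16 in log2 for CESA1, 1.09 ± 0.15 for CESA3, 0.93 ± 0.20 for CESA6 and 0.88 ± 0.25 for CESA8 (limma, adjusted p = 1.3e-06, 1.76e-05, 0.00102 and 0.0088). CESA4 differed the other way, by -0.42 ± 0.16 (adjusted p = 0.0344). That call was lost without any one of 5 libraries (Hanhui3 water replicate 2, Hanhui3 drought replicates 2 and 3, Huhan7B water replicate 3, Huhan7B drought replicate 3; adjusted p = 0.0622 to 0.0959) and with pseudocounts of 0.1 and 5. CESA7 and CESA9 were not called (adjusted p = 0.806 and 0.077), and CESA9 was called without Hanhui3 drought replicate 1 (0.31, adjusted p = 0.0461).

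A further comparison set the hybrid against its parents within each condition. In water, 1 of the 7 genes was above the mean of the parents and 1 below, where 43.7% of all genes tested were called above and 23.5% below. The 7 include CESA7 and CESA9, which rested on 0 to 3.8 fragments per watered library and could hardly be called there. CESA1 was higher by 0.64 ± 0.10 in log2 (limma, adjusted p = 2.08e-05), at 8.51 ± 0.929 FPKM against 5.61 ± 0.307 in Hanhui3 and 4.61 ± 0.426 in Huhan7B (SD, n = 3). CESA8 was lower by 0.68 ± 0.16 (adjusted p = 0.00112). The other 5 genes differed from the parental mean by -0.04 to 0.03 in log2 and were not called.

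Set against each parent in water, CESA1 was higher than in Hanhui3 by 0.52 ± 0.11 in log2 (limma, adjusted p = 0.000556) and than in Huhan7B by 0.76 ± 0.11 (adjusted p = 1.77e-05). CESA8 was lower than in Hanhui3, by -0.97 ± 0.18 (adjusted p = 0.000167), and was not called against Huhan7B (-0.39 ± 0.18, adjusted p = 0.0668). So 1 of 7 genes was above Hanhui3 and 1 below, where 46.7% and 23.3% of all genes tested were called so, and 1 of 7 was above Huhan7B and 0 below, where 37.1% and 27.9% were. Here too the 7 include CESA7 and CESA9, which were near 0 in water. Without Hanhui3 water replicate 1 CESA3 was also called below Hanhui3 (-0.27, adjusted p = 0.0105), and without Huhan7B water replicate 3 CESA8 was called below Huhan7B (-0.55, adjusted p = 0.0176).

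Under drought CESA4 and the 4 primary wall genes were above the parental mean, where 58.4% of all genes tested were called above it and 14.3% below. The differences were 3.20 ± 0.10 in log2 for CESA4, 1.47 ± 0.10 for CESA1, 1.39 ± 0.12 for CESA6, 1.05 ± 0.16 for CESA8 and 0.99 ± 0.09 for CESA3 (limma, adjusted p from 1.03e-13 to 1.81e-05), beside 3.75 for CESA7 and 3.25 for CESA9. With median-ratio scaling, which moves the median of all genes from 0.31 to 0.07, the 5 called differences ran from 0.72 for CESA3 to 2.96 for CESA4.

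Set against each parent, and leaving CESA7 and CESA9 aside, 4 of 5 genes were above droughted Hanhui3, where 52.2% of all genes tested were called above and 15.9% below, and 5 of 5 were above droughted Huhan7B, where 56.0% were called above and 16.0% below. CESA8 was not called against Hanhui3 (0.32 ± 0.18 in log2, limma, adjusted p = 0.123), and it was called with a pseudocount of 5 (adjusted p = 0.0345) and without Hanhui3 drought replicate 1 (adjusted p = 0.0477). The CESA3 difference from Hanhui3, 0.35 ± 0.11 (adjusted p = 0.00746), was not called with median-ratio scaling (0.10, adjusted p = 0.389). CESA4, CESA1 and CESA6 were called above each parent under every setting tried.

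In water the parents differed in 1 of the 7 genes, where 25.3% of all genes tested were called higher in Hanhui3 and 41.2% lower. CESA7 and CESA9 are among the 7 and, being near 0 in water, could hardly be called. CESA8 was higher in Hanhui3 by 0.58 ± 0.18 in log2 (limma, adjusted p = 0.0103). That call was lost without Huhan7B water replicate 3 (0.42, adjusted p = 0.0632) and with only the 2 groups in the fit (adjusted p = 0.0525). With median-ratio scaling CESA1, CESA3 and CESA6 were called higher in Hanhui3 too, by 0.42, 0.38 and 0.46 in log2. CESA3 was also called without Hanhui3 water replicate 1, by 0.32 against 0.18 with it. Without Huhan7B water replicate 3, CESA6 was called higher in Hanhui3 (0.37, adjusted p = 0.0476) and CESA4 lower (-0.28, adjusted p = 0.0402).

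Under drought the parents differed in 6 of the 7 genes, 5 higher and 1 lower in Hanhui3, where 32.0% of all genes tested were called higher and 26.9% lower. CESA1 was higher by 1.71 ± 0.11 in log2, CESA8 by 1.45 ± 0.18, CESA3 by 1.27 ± 0.11 and CESA6 by 1.22 ± 0.14 (limma, adjusted p from 1.88e-09 to 4.01e-06). CESA4 was lower in Hanhui3, with a difference of -0.59 ± 0.11 (adjusted p = 0.000287). CESA9 was higher by 0.28 ± 0.08 (adjusted p = 0.00851), a call that was lost without Hanhui3 drought replicate 3 (0.21, adjusted p = 0.0515) and with a pseudocount of 5 (adjusted p = 0.0543).

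Several shorter gene models in the deposited table carry the annotation of a CESA protein without a CESA symbol, and reads may have been split between them and the genes above. Their values, and those of the gene they match, are uncertain to that extent, and whether counting used strand is not given in the sources used here. Os10g0467850, annotated as CESA7, was listed at 1.91, 1.75 and 1.83 FPKM in the droughted hybrid and at 0.02 FPKM or less elsewhere. Os07g0208533, annotated as CESA8, was listed at 10.19, 7.94 and 7.83 FPKM there, close to CESA8 itself, and at 6.62, 12.7 and 5.36 FPKM in droughted Hanhui3. Of 6 such models 3 passed the filter, 1 of them (Os10g0467850) only with the droughted hybrid. The other 2 rose in the hybrid, where 45.0% of all genes tested were called higher and 25.7% lower. Os07g0208533 was also called higher in Hanhui3 (2.08 in log2, limma, adjusted p = 0.000245), and Os03g0808150 was not. Neither was called in Huhan7B.

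The other CESA genes followed the primary wall genes in part. OsCesA2 (Os03g0808100) rose in each genotype, from 12.6 ± 1.56 to 27.6 ± 0.615 FPKM in Hanyou73, from 4.89 ± 1.51 to 10.6 ± 1.57 in Hanhui3 and from 3.05 ± 0.45 to 6.31 ± 1.04 in Huhan7B (SD, n = 3; log2 changes 1.08, 0.99 and 0.85). Its difference of response between the parents was 0.14 ± 0.22 in log2 and was not called (limma, adjusted p = 0.607). OsCesA5 (Os03g0837100) rose from 2.42 ± 0.071 to 4.04 ± 0.881 FPKM in Hanyou73 and from 1.90 ± 0.468 to 4.11 ± 0.635 in Hanhui3 (SD, n = 3). OsCesA10 and OsCesA11 stayed under 1 FPKM in all libraries and were not tested.

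Partners of cellulose deposition include the COBRA-like proteins, anchored at the cell surface, and the products of brittle culm genes. Of 25 such genes 16 were tested. In the hybrid 11 were called higher and 4 lower (2 lower without Hanyou73 drought replicate 3), beside 45.0% and 25.7% of all genes tested. Of the 16, 4 passed the filter only with the droughted hybrid libraries, BC1L7 and BC1 among them, so that the filter fixed their direction and the count is a description. In Hanhui3 5 rose and 1 fell (2 fell without Hanhui3 water replicate 1), beside 35.1% and 18.4% of all genes, and in Huhan7B 2 rose and 4 fell, beside 21.2% and 32.1%. BC1L7 (Os07g0604400), a COBRA-like gene, was listed at 28.2, 25.49 and 23.4 FPKM in the droughted hybrid, at 0.25, 0 and 0.12 FPKM in the watered hybrid, and at 0.14 FPKM or less in every library of the parents. BC1L9 (Os10g0497700), of the same family, fell from 18.2 ± 0.222 to 2.56 ± 0.618 FPKM in Hanyou73 and from 16.4 ± 0.991 to 1.003 ± 0.105 in Huhan7B (SD, n = 3).

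BC1 (Os03g0416200), the COBRA-like gene whose loss gives brittle culms, was named here after its values were seen. It was listed at 1.07, 1.38 and 1.24 FPKM in the droughted hybrid and at 0.16 FPKM or less elsewhere. BC3 (Os02g0738900), a dynamin, fell from 22.7 ± 1.17 to 14.95 ± 0.752 FPKM in Hanyou73 and from 22.5 ± 0.754 to 12.4 ± 0.731 in Huhan7B (SD, n = 3). BC10 (Os05g0170000), a glycosyltransferase of the Golgi, rose by 0.85 ± 0.16 in log2 in Hanhui3 (limma, adjusted p = 0.000363). Its change was 0.93 in Hanyou73 and -0.03 in Huhan7B.

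Sucrose synthases split sucrose and supply UDP-glucose, the substrate of cellulose synthase. Of 14 listed genes 3 were tested, of which 2 rose and 1 fell in Hanyou73 (45.0% and 25.7% of all genes), 2 rose and 0 fell in Hanhui3 (35.1% and 18.4%; 1 rose and 1 fell with median-ratio scaling), and 1 rose and 2 fell in Huhan7B (21.2% and 32.1%). The median change of the 3 was 1.61, 0.17 and -0.64 in log2, beside 0.18, 0.10 and -0.07 for all genes tested. SUS1 (Os03g0401300) was listed at 3.80, 4.96 and 3.87 FPKM in the watered hybrid and at 53.42, 55.56 and 52.69 FPKM in the droughted hybrid. It rose from 4.79 ± 0.256 to 21.3 ± 2.37 FPKM in Hanhui3 and fell from 5.09 ± 0.272 to 2.49 ± 0.783 in Huhan7B (SD, n = 3). SUS4 (Os03g0340500) rose from 98.4 ± 5.15 to 301.2 ± 5.97 FPKM in Hanyou73. Its small rises in Hanhui3 (0.17 in log2) and Huhan7B (0.10 in log2) were lost with median-ratio scaling in Hanhui3 and without any one of Huhan7B water replicates 2 and 3 and drought replicates 1, 2 and 3 in Huhan7B. In the hybrid SUS2 (Os06g0194900) fell from 231.8 ± 5.3 to 135.1 ± 3.29 FPKM, and in Huhan7B from 133.9 ± 1.88 to 85.4 ± 1.41 (SD, n = 3).

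Xylan and lignin are laid down with cellulose in secondary walls. Of 111 genes listed for xylan synthesis and acetylation 64 were tested, and in the hybrid 37 were called higher and 12 lower (34 and 15 with median-ratio scaling), beside 45.0% and 25.7% of all genes tested. The list takes in trichome birefringence-like (TBL) genes, and not all of these are annotated to xylan. OsTBL51 (Os06g0234400), for example, is annotated as xyloglucan O-acetyltransferase 3. Of the 64, 5 passed the filter only with the droughted hybrid, 2 only with the watered hybrid and 1 only with watered Hanhui3. The filter fixed the direction of these genes in that genotype, so the counts there are a description. In Hanhui3 16 rose and 9 fell (35.1% and 18.4% of all genes), and in Huhan7B 10 rose and 15 fell (21.2% and 32.1% of all genes; 14 and 10 with median-ratio scaling). OsTBL4 (Os05g0356700), a probable xylan O-acetyltransferase, was listed at 0 in the watered hybrid and at 5.67 ± 0.43 FPKM in the droughted hybrid (SD, n = 3). Its changes in Hanhui3 and Huhan7B were 0.023 and 0.0 in log2, and its difference in the hybrid is given as a description. OsTBL12 (Os01g0830700), annotated as xylan O-acetyltransferase 1, fell from 39.4 ± 1.4 to 8.04 ± 1.58 FPKM in the hybrid and from 15.6 ± 0.987 to 6.78 ± 0.976 in Huhan7B (SD, n = 3).

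Laccases oxidise lignin precursors in the wall. Of 32 listed genes 13 were tested, and in the hybrid 10 were called higher and 1 lower, beside 45.0% and 25.7% of all genes tested. Of the 13, 6 passed the filter only with the droughted hybrid libraries, so that the filter fixed their direction and the count is a description. Another 1 passed only with droughted Hanhui3 and 1 only with watered Huhan7B, so the counts in these genotypes are a description too. OsLAC26 (Os11g0708100) went from 0.127 ± 0.11 to 18.1 ± 1.201 FPKM and OsLAC5 (Os01g0842500) from 0.0233 ± 0.0404 to 15.4 ± 0.94 (SD, n = 3). OsLAC7 (Os01g0850550) fell, from 47.4 ± 2.21 to 0.597 ± 0.161 FPKM in Hanyou73 and from 20.6 ± 0.468 to 0.93 ± 0.115 in Huhan7B (SD, n = 3). In Hanhui3 2 laccase genes rose and 1 fell (35.1% and 18.4% of all genes), and in Huhan7B 2 rose and 4 fell (21.2% and 32.1%).

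**Figure D4:**
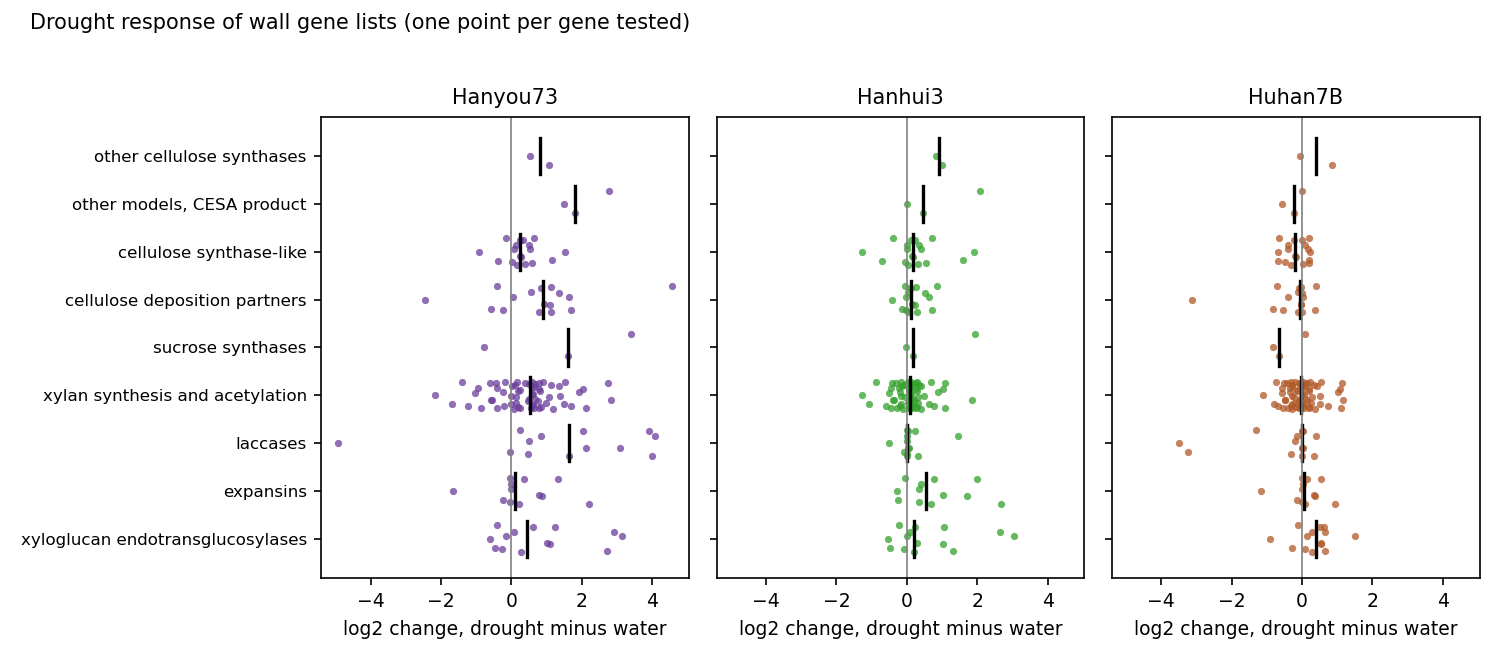
Change with drought in log2(FPKM + 1) (horizontal axis) of the tested genes of 9 wall gene lists (rows) in Hanyou73, Hanhui3 and Huhan7B (panels). Each point is a gene and each black bar the median of its list; in Hanyou73 the laccases spread from -4.93 to 4.08, and 6 of the 13 were tested only because the droughted hybrid was high.

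Secondary wall genes are known to be switched on by NAC and MYB transcription factors. Of the 4 regulators found by symbol, OsSWN7 (Os06g0104200) alone was tested and was not called in any genotype (-0.07 ± 0.12 in log2 in Hanyou73, limma, adjusted p = 0.61). OsSWN6 and OsMYB46 were listed at 0 in all 18 libraries, and OsSND2 (Os05g0563000) was listed at 0.46, 0.29 and 0.35 FPKM in the droughted hybrid and at 0.06 FPKM or less elsewhere. A search by product, added after values were seen, matched 9 genes, of which 2 were tested. Both have NAC43 as best match, known in Arabidopsis as the secondary wall regulator NST1. ONAC029 (Os08g0115800) was not called in any genotype (0.29 ± 0.16 in log2 in Hanyou73, limma, adjusted p = 0.127). The other was ONAC007 (Os06g0131700). It was listed at 0.25, 0.10 and 0.06 FPKM in the watered hybrid and at 14.73, 12.29 and 13.55 FPKM in the droughted hybrid. In Hanhui3 it was listed at 0.53, 0.05 and 0.11 FPKM in water and at 1.22, 1.13 and 0.89 FPKM under drought, and in Huhan7B at 0.24 FPKM or less. Since ONAC007 passed the filter only with the droughted hybrid libraries, its difference there, 3.68 in log2, is a description. Its change was 0.78 ± 0.13 in Hanhui3 (called, limma, adjusted p = 0.000118) and 0.22 ± 0.13 in Huhan7B (not called, adjusted p = 0.17). The genes of this search that were not tested did not share one pattern. Os01g0285300, a MYB gene, was listed at 0.61, 0.41 and 0.89 FPKM in the droughted hybrid. In droughted Hanhui3 it was listed at 1.11, 0.86 and 0.79 FPKM. Os06g0131800 was listed at 0, 1.02 and 0.31 FPKM in the droughted hybrid and at 0 in droughted Hanhui3.

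Across the 18 libraries all 7 genes were positively correlated. Pearson's r of log2(FPKM + 1) was 0.996 between CESA7 and CESA9, 0.981 between CESA4 and CESA7 and 0.973 between CESA4 and CESA9. Among primary wall genes it ran from 0.757 (CESA1 and CESA8) to 0.946 (CESA3 and CESA6). Between the wall types it ran from 0.618 (CESA4 and CESA3) to 0.855 (CESA9 and CESA6), so that some such pairs lay above the lowest primary wall pair. Libraries of a group share their condition, so r is given as a description over 18 libraries and has no p. Since CESA7 and CESA9 reached 1 FPKM only in the droughted hybrid, r among the secondary wall genes rests mostly on that group against the rest.

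The genes most like the secondary wall members, by r with the mean of the 3 scaled members over 18 libraries, had r from 0.9978 to 0.9979. They were OsLAC6 (Os01g0843800), Os01g0728700 (annotated as oil body-associated protein 2B), OsLAC5, the peroxidase gene prx71 (Os05g0135500) and the CESA7-like model Os10g0467850. OsLAC6 was listed at 7.56 ± 0.221 FPKM in the droughted hybrid, Os01g0728700 at 10.4 ± 0.496 and prx71 at 41.2 ± 2.90 (SD, n = 3). OsLAC6 and Os01g0728700 were at 0 in the means of the other 5 groups, and prx71 was at 0.113 FPKM or less. In all, 174 genes had an r of at least 0.95 with the secondary wall members. Any gene high in the droughted hybrid alone would have a high r with them. These r therefore describe a high level in that group, and not a likeness within groups.

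The genes most like the primary wall members had r from 0.9719 to 0.9837, and 34 genes reached 0.95. OsGH9A3 (Os03g0736300), annotated as endoglucanase 10, stood at 5.24 ± 0.10 FPKM in the watered and 22.9 ± 1.203 in the droughted hybrid, at 5.06 ± 0.699 and 12.6 ± 1.04 in Hanhui3, and at 3.58 ± 0.276 and 3.46 ± 0.0929 in Huhan7B (SD, n = 3). Glycosyl hydrolases of this class in Arabidopsis include KORRIGAN, a membrane-bound endoglucanase needed for cellulose synthesis. The other 4 were OspPLAIIiota (Os11g0614500, a patatin-like protein), Os09g0500900 (a cytochrome b561 protein), Os07g0618400 (a receptor kinase of the STRUBBELIG family) and Os02g0592833 (a zinc finger protein).

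**Figure D5:**
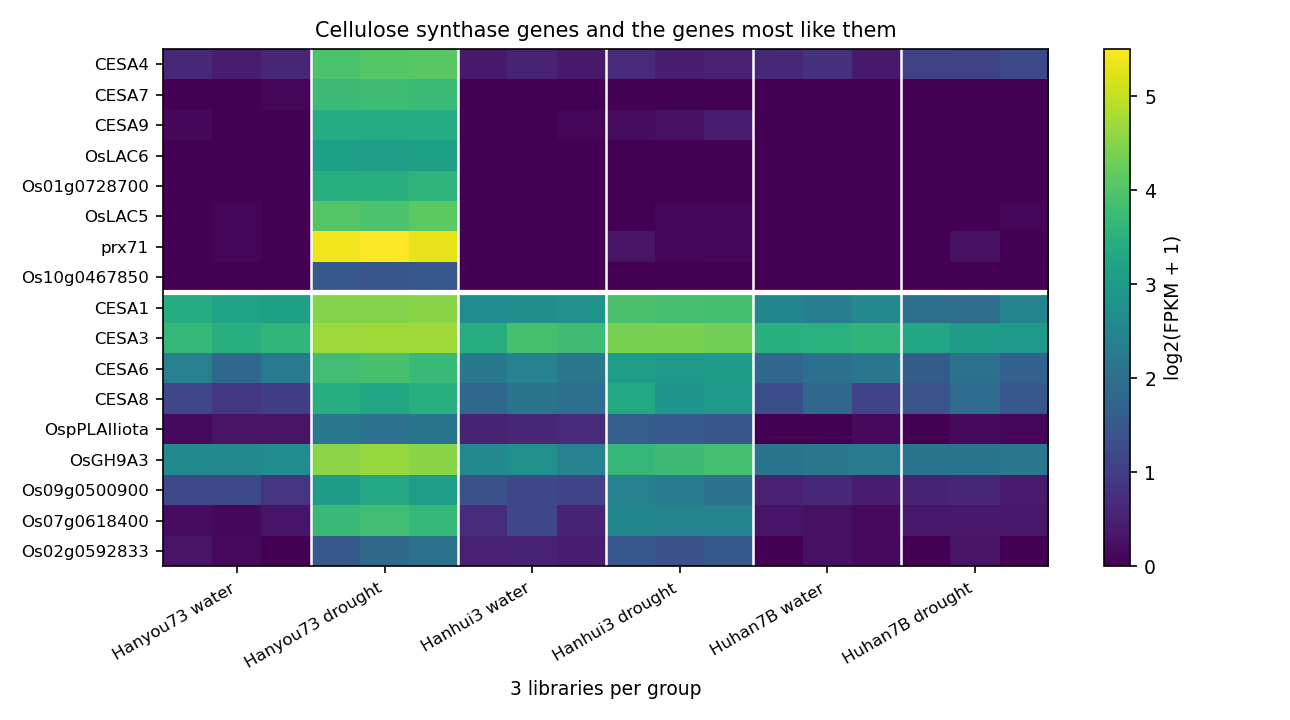
Expression as log2(FPKM + 1) (colour scale) of the 3 secondary wall genes and the 5 genes most like them (upper block), and of the 4 primary wall genes and the 5 most like them (lower block), in the 18 libraries (columns, 3 per group). Lighter means higher: each gene of the upper block is lightest in the droughted hybrid, Os10g0467850 (1.75 to 1.91 FPKM) the least so. Each gene of the lower block is also lighter in droughted than in watered Hanhui3, with CESA3 at 19.14 to 19.73 FPKM under drought.

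Marker genes of cell types were measured beside these results. All 10 mesophyll markers (chlorophyll a-b binding proteins and the small subunit of Rubisco), which define the labelled leaf tissue, were expressed in every group. Their summed FPKM was 10500 to 11270 in the watered and 18520 to 18710 in the droughted hybrid, 50160 to 55100 and 56700 to 58720 in Hanhui3, and 31460 to 32240 and 39050 to 42850 in Huhan7B. The single markers did not all follow these sums. With drought 5 of the 10 were called higher and 4 lower in Hanyou73, beside 45.0% and 25.7% of all genes tested. In Hanhui3 it was 4 and 4 (35.1% and 18.4%), and in Huhan7B 8 and 0 (21.2% and 32.1%).

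No gene matched the terms chosen for xylem markers. The 4 genes annotated as the xylem cysteine protease XCP2, added after values were seen, summed to 0.23 to 0.53 FPKM in the droughted hybrid, against 0.11 to 0.32 in the watered hybrid and 0.13 to 0.46 in the parents, and none was tested. Beside the counts that follow, 45.0% of all genes tested were called higher with drought and 25.7% lower in Hanyou73. The shares were 35.1% and 18.4% in Hanhui3, and 21.2% and 32.1% in Huhan7B. Of 21 markers of dividing cells 9 were tested, and 2 rose and 3 fell in the hybrid with drought, with a sum of 348.5 to 383.5 FPKM in water and 310.4 to 321.6 under drought. In Hanhui3 1 of these rose and 0 fell, and in Huhan7B 0 rose and 4 fell (374.7 to 383.8 FPKM in water, 260.9 to 272.4 under drought). Pollen terms matched 37 genes and 7 were tested. In the hybrid 6 rose and 0 fell (103.8 to 111.1 FPKM in water, 408.1 to 429.6 under drought). In Hanhui3 5 rose and 0 fell (39.33 to 44.26 and 64.68 to 71.55 FPKM). In Huhan7B 1 rose and 4 fell, and the sum went from 853.1 to 914.3 FPKM in water to 71.77 to 83.89 under drought. Of the 7, 4 are allergen-like proteins of the PR10 family, known as defence proteins, and 23 of the 37 were at 0 in the droughted hybrid. Of 54 grain storage protein genes 4 were tested and 0 rose and 1 fell in the hybrid, with 42 of the 54 at 0 in the droughted hybrid. The part of these shifts in the results above was not tested.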

How the data were processed

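Polyadenylated RNA of flag leaves was sequenced from 18 strand-specific libraries, per the labels' protocols. Per the submitters' processing notes, fastp, HISAT2, StringTie, RSEM and DESeq2 were used with the genome build IRGSP-1.0. Their versions and roles are not given in the sources used here. The authors' deposited values were read as FPKM because they sum to 958893 to 1140989 per library and their low values step with gene length. Whole fragments, within 0.1, fitted 83.6% to 87.2% of low values of genes of 700 to 2500 bases once 310 bases were taken off the length, which gave the depth. Fragment numbers and the FPKM of 3 fragments rest on that estimate and cover counting error only. No genome or sequence of the authors' build was used here, so no sequence or coordinate is given.

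Group means of log2(FPKM + 1) over the 6 groups were modelled in limma 3.58.1 (R 4.3.3) with an intensity trend, and contrasts were tested two-sided with Benjamini-Hochberg adjustment and a threshold of 0.05. Genes with 1 FPKM in at least 3 libraries were tested, with 1017 structural RNA genes left out. The fit was tested on simulated data. Errors of levels are SD over 3 libraries, and of changes the SE of the fit. The deposited group means are the means of these libraries and were not used.

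Comparisons shared libraries where they shared a group, so no overlap between them is given. Lists were matched on the symbols and products in the deposited file. From each list, up to 2 called genes per direction and genotype with the largest change and a mean of at least 1 FPKM could be named. The 5 genes most like each wall type were ranked by Pearson's r. The members and lists were chosen with earlier results of these data known. The alternatives were median-ratio scaling, pseudocounts of 0.1 and 5, no filter, a filter at 5 FPKM, only the groups compared in the fit, a replicate block, no intensity trend, and each library left out.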

Additional observations from a re-analysis of the deposited data

Results flagged for a closer look

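These results were flagged because the response to drought itself differed between genotypes, by the test of the difference (limma, adjusted over 22590 genes). Such a call was common. For the hybrid against the parental mean response, 38.8% of all genes tested were called higher and 19.5% lower. Between the parents' responses, 36.2% were called higher in Hanhui3 and 17.1% lower. The hybrid's change minus the mean change of the parents was 3.16 in log2 for CESA4. For the primary wall genes it was 1.73 for CESA8, 1.37 for CESA6, 1.02 for CESA3 and 0.83 for CESA1. It was 3.72 for CESA7 and 3.22 for CESA9, but these 2 genes passed the filter on low values only with the droughted hybrid libraries, so the test says nothing about them and their values are a description. The change of Hanhui3 minus that of Huhan7B was 1.47 in log2 for CESA1, 1.09 for CESA3, 0.93 for CESA6 and 0.88 for CESA8. For CESA4 it was -0.42, the one of the 10 tested differences whose call was lost under some settings.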

How the results depend on the processing

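Of 91 tests of a member in a contrast, 59 were called, and 53 of these were called under every alternative in the same direction. The 6 others are named in the report. Over the contrasts, 21.2% to 58.4% of all genes tested were called higher and 14.3% to 41.2% lower. Calls were thus common over all genes, and the 59 are no result about the members. The calls of CESA7 and CESA9 that involve the droughted hybrid are among the 59 but were fixed by the filter, so their stability shows nothing. The other 32 tests were not called. Over the members and the other genes followed in the drought responses, a value called in neither fit changed sign in 21 cases. Secondary wall members called higher in Hanhui3 with drought numbered 0 with a pseudocount of 5, and 0 to 1 with libraries left out. Primary wall members lower in Huhan7B numbered 1 with median-ratio scaling and with only the groups compared, and 1 to 2 with libraries left out.

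For the parents' difference in response, secondary wall members lower numbered 0 with a pseudocount of 0.1, a pseudocount of 5 and the replicate block, and those higher numbered 1 with a pseudocount of 0.1, with no filter and with no intensity trend (each 0 to 1 with libraries left out). Between the watered parents, primary wall members higher numbered 4 with median-ratio scaling and 0 with only the groups compared (1 to 2 with libraries left out), and secondary wall members lower numbered 0 to 1. Between the droughted parents, secondary wall members higher numbered 0 with a pseudocount of 5 (0 to 1 with libraries left out). In water, primary wall members of the hybrid below Hanhui3 numbered 2 with median-ratio scaling (1 to 2 with libraries left out), and below Huhan7B 1 with a pseudocount of 0.1 (0 to 1). The cause was not tested.

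Median-ratio scaling moved counts over all genes. For the hybrid's response against the parental mean they went from 8757 higher and 4411 lower to 5907 and 5966, for the watered parents from 5704 and 9305 to 7755 and 6677, and for the watered hybrid from 10549 and 5268 to 8306 and 7388 against Hanhui3. For the parents' difference in response they went from 8169 higher and 3866 lower to 5013 and 5898, for the droughted hybrid against the parental mean from 13184 and 3232 to 8274 and 5888, against Hanhui3 from 11789 and 3594 to 7783 and 6018, and against Huhan7B from 12644 and 3610 to 8424 and 6178. Same-numbered libraries of a genotype did not deviate together (r from -0.0394 to 0.046 over 9 pairs), and the main fit does not pair them. Whether the numbers mark a shared plot is not given in the labels. With the replicate block the CESA4 difference between the parents' responses had an adjusted p of 0.0509. With a pseudocount of 0.1, 3 of the 5 genes most like the secondary wall members and 1 of the 5 most like the primary wall members were still among the 5.

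Depth limits CESA7 and CESA9 outside the droughted hybrid, where values rest on 0 to 17.2 fragments per library.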

Other observations

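Gene families that act on other wall polymers were measured beside the cellulose synthases. Of 36 cellulose synthase-like genes, which make hemicelluloses, 18 were tested. In Hanyou73 10 rose and 2 fell with drought (8 and 3 with median-ratio scaling), where 45.0% and 25.7% of all genes tested did. In Hanhui3 8 rose and 2 fell (35.1% and 18.4% of all genes), and in Huhan7B 1 rose and 6 fell (21.2% and 32.1% of all genes; 3 and 6 with median-ratio scaling). Of the 18, 1 passed the filter only with the watered hybrid and 1 only with droughted Hanhui3, so the counts in these genotypes are a description. OsCslA3 (Os06g0230100), a probable mannan synthase, rose from 0.55 ± 0.165 to 3.46 ± 0.251 FPKM in Hanyou73 and from 0.907 ± 0.291 to 4.71 ± 0.301 in Hanhui3 (SD, n = 3). OsCslC1 (Os01g0766900), a probable xyloglucan synthase, rose from 5.21 ± 0.468 to 12.7 ± 0.395 FPKM in Hanyou73. OsCSLD2 (Os06g0111800) fell there from 17.9 ± 1.47 to 9.01 ± 0.468 FPKM, and in Huhan7B from 8.55 ± 0.487 to 4.94 ± 0.28 (SD, n = 3).

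Expansins loosen walls during growth, and xyloglucan endotransglucosylases cut and rejoin xyloglucan. Of 99 expansin genes 12 were tested, with 4 up and 1 down in Hanyou73, 6 up and 0 down in Hanhui3 (1 down without Hanhui3 water replicate 3), and 2 up and 1 down in Huhan7B (4 up without Huhan7B drought replicate 1). The shares over all genes were 45.0% up and 25.7% down, 35.1% and 18.4%, and 21.2% and 32.1%. Of the 12, 3 passed the filter only with droughted Hanhui3 and 1 only with the droughted hybrid. The filter favoured a rise of these genes in that genotype, so the counts in Hanhui3 and Hanyou73 are a description. OsEXPB3 (Os10g0555900) was listed at 0 in watered Hanhui3 and at 2.97 ± 0.414 FPKM in droughted Hanhui3 (SD, n = 3). Of 38 xyloglucan endotransglucosylase genes 14 were tested, with 7 up and 1 down in Hanyou73 (7 and 4 with median-ratio scaling, and 2 down without either Hanyou73 water or drought replicate 3), 5 up and 1 down in Hanhui3, and 4 up and 1 down in Huhan7B (2 down without Huhan7B water replicate 2). The shares over all genes are those given for the expansins. Of the 14, 2 passed the filter only with the droughted hybrid and 2 only with droughted Hanhui3, so the counts in these genotypes are a description too. OsXTH10 (Os06g0697000) went from 0.173 ± 0.155 to 8.73 ± 0.364 FPKM in Hanhui3, and its log2 change was 2.71 in the hybrid and 0.54 in Huhan7B. Os02g0453500 of the same family rose in each genotype, with log2 changes of 2.90 in the hybrid, 2.65 in Hanhui3 and 1.503 in Huhan7B.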
